A study of Mus musculus with 30 samples.

Results

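Of 12428 genes in the deposited table, 7 genes induced by nuclear GRHL2 are described here: Aldh3b2, Wnt7b, Bnipl, Acsl5, Pea15a, Sord and Hsbp1l1. They were picked from these data because tamoxifen raised them strongly in Kmt2c-KO cells that carried GRHL2-ERT and less in Kmt2c/Kmt2d double-KO cells that carried it. The tamoxifen responses in both lines, and their difference, therefore describe how the genes were chosen, and no p is given for them. The 30 libraries hold 3′ tags of RNA from mouse embryonic stem cells in the naive state (C57BL/6J x 129), kept in LIF and inhibitors of MEK and GSK3. All cells lacked Kmt2c.

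The libraries formed 10 groups of 3. GRHL2-ERT double-KO cells (Kmt2cKO and Kmt2dKO) had tamoxifen and ethanol groups at 16 h and at 8 h, and so did GRHL2-ERT Kmt2c-KO cells, whose label gives floxed Kmt2d alleles (written Kmtd fl/fl). Kmt2c-KO cells with the same alleles and no GRHL2-ERT had a tamoxifen group at each time. Tamoxifen was the inducer and ethanol the vehicle. Per the labels, the GRHL2-ERT lines came from transposition, and clones were chosen for comparable GRHL2 expression, so each genotype stands for the clones chosen and not for a set of independent lines. The labels number the replicates without saying that they were separate cultures, so a p measures only the spread between these libraries, which may be technical.

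GRHL2 is a grainyhead-like transcription factor that binds enhancers and promoters of epithelial genes and can act at closed chromatin. Fused to the ligand-binding domain of the estrogen receptor (ERT), it stays largely outside the nucleus until tamoxifen is added. KMT2C and KMT2D are related histone methyltransferases that place monomethylation on histone H3 lysine 4 at enhancers. The 7 genes have diverse roles. Wnt7b encodes a secreted Wnt ligand, Acsl5 a long-chain acyl-CoA synthetase, Aldh3b2 an aldehyde dehydrogenase of lipid aldehydes, Sord sorbitol dehydrogenase of the polyol pathway, Pea15a a death effector domain protein that binds ERK, Bnipl a BNIP2-like protein with a BCH domain, and Hsbp1l1 a small protein named for its likeness to heat shock factor binding protein 1.

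RefSeq promoters (GRCm38.p6, 250 bases before to 50 after the gene start) were found for 3 of the 7 genes. These are the 3 members with the most RNA before induction, and their promoters are shown 5′ to 3′ on the gene's strand because a GRHL motif in them could be looked for directly. Capitals mark CG dinucleotides. The windows are chr19:55253119-55253418 (+ strand) for Acsl5, chr1:172206755-172207054 (- strand) for Pea15a and chr2:122234589-122234888 (+ strand) for Sord. They follow the RefSeq gene starts, and the Acsl5 window lies inside the gene as GENCODE gives it, which starts at 55251938.
Acsl5: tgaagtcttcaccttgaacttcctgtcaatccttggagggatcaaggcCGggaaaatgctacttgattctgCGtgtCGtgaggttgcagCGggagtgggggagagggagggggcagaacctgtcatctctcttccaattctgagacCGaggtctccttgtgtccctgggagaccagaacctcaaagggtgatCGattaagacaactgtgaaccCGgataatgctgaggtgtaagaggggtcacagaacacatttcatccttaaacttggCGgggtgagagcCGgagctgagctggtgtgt
Pea15a: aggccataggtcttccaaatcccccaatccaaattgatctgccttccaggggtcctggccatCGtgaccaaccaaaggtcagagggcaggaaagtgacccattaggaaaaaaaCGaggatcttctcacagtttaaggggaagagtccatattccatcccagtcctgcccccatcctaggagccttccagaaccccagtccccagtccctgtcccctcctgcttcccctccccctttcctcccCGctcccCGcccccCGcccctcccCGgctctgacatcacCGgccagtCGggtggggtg
Sord: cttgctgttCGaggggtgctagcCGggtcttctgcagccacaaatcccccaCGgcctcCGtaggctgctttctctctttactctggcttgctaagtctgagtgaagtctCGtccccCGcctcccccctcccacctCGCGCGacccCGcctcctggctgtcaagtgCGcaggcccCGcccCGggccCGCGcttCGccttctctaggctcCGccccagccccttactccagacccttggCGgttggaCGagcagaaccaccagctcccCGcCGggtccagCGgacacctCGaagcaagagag
The Sord window held 23 CG dinucleotides and 66.7% G or C, the Pea15a window 8 and 60%, and the Acsl5 window 9 and 53%, against medians of 7 and 52.7% over all promoters of the table. The GRHL motifs AACCNGTT and AACNNGTT, searched on both strands, were in none of the 3 windows. Every AACCNGTT match is also a match of AACNNGTT. AACCNGTT was present in 686 of 32851 promoters of the same length (2.09%) and AACNNGTT in 1381 (4.20%). No match says only that these letters are not in these windows.

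In the GENCODE release 21 annotation of mm10, Aldh3b2 lies on chromosome 19 (3972328 to 3981646), Wnt7b on chromosome 15 (85535437 to 85582473), Bnipl on chromosome 3 (95241271 to 95251193), Acsl5 on chromosome 19 (55251938 to 55297720), Pea15a on chromosome 1 (172196728 to 172206804), Sord on chromosome 2 (122234749 to 122265340) and Hsbp1l1 on chromosome 18 (80229758 to 80247102). Whether the counting used strand is not given in the sources used here, so overlaps at a 3′ end leave the assignment of tags uncertain. The 3′ end of Pea15a overlaps Dcaf8 on the other strand by 278 bases, that of Acsl5 lies in Zdhhc6 on the other strand, and that of Bnipl overlaps Gm128 on the same strand by 328 bases. Dcaf8 had 46.0 ± 4.13 CPM with tamoxifen and 46.2 ± 2.96 CPM with ethanol in the 8 h libraries of GRHL2-ERT Kmt2c-KO cells (SD, n = 3 each), the groups in which Pea15a differed most. At 8 h Zdhhc6 had 20.8 ± 4.38 CPM and Gm128 0.814 ± 0.584 CPM in those tamoxifen libraries, against 16.1 ± 3.55 CPM and 0.291 ± 0.332 CPM with ethanol. At 16 h Gm128 had 2.34 ± 0.0868 CPM with tamoxifen and 1.18 ± 0.344 CPM with ethanol in these cells, without overlap (limma adjusted p = 0.97). The part of shared tags in the values of Bnipl was not tested. Aldh3b2 has close paralogs in mouse, and how tags shared with them were assigned was not tested.

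Recovered depth ran from 8.81 to 22.0 M reads per library, and 3 reads corresponded to 0.136 to 0.340 CPM. The 10 naive markers (Pou5f1, Nanog, Zfp42 and others) were present in every library, with a summed level of 5212 to 6073 CPM in double-KO and 8292 to 11898 CPM in Kmt2c-KO libraries. Of the markers of other cells, 3 of 8 for fibroblast feeders summed to 0 to 5.64 CPM and 6 of 8 for trophoblast to 38.9 to 139 CPM. Primitive endoderm markers (5 of 7 in the table) summed to 20.0 to 47.6 CPM in double-KO and 0.900 to 5.77 CPM in Kmt2c-KO libraries. One library stood apart: double-KO tamoxifen replicate 2 at 8 h had the lowest depth, and a mean correlation of 0.932 with the other libraries of its group, the lowest of the 30. The ribosomal Rn45s took 7.37% of its reads, and 7.40% in Kmt2c-KO ethanol replicate 3 at 8 h, which had 12.3 M reads and a mean correlation of 0.980. Group means of the targeted Kmt2d ran from 7.29 to 9.70 CPM in double-KO, 8.76 to 18.2 CPM in GRHL2-ERT Kmt2c-KO and 6.91 to 10.0 CPM in other Kmt2c-KO groups, and those of Kmt2c from 11.2 to 29.5 CPM. The deleted parts are not given in the sources used here, and 3′ tags outside a deleted part check nothing. The values of the library that stood apart are in the results below, and values of the 7 genes that moved by over 1.5 times without it are given beside them.

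**Figure D1:**
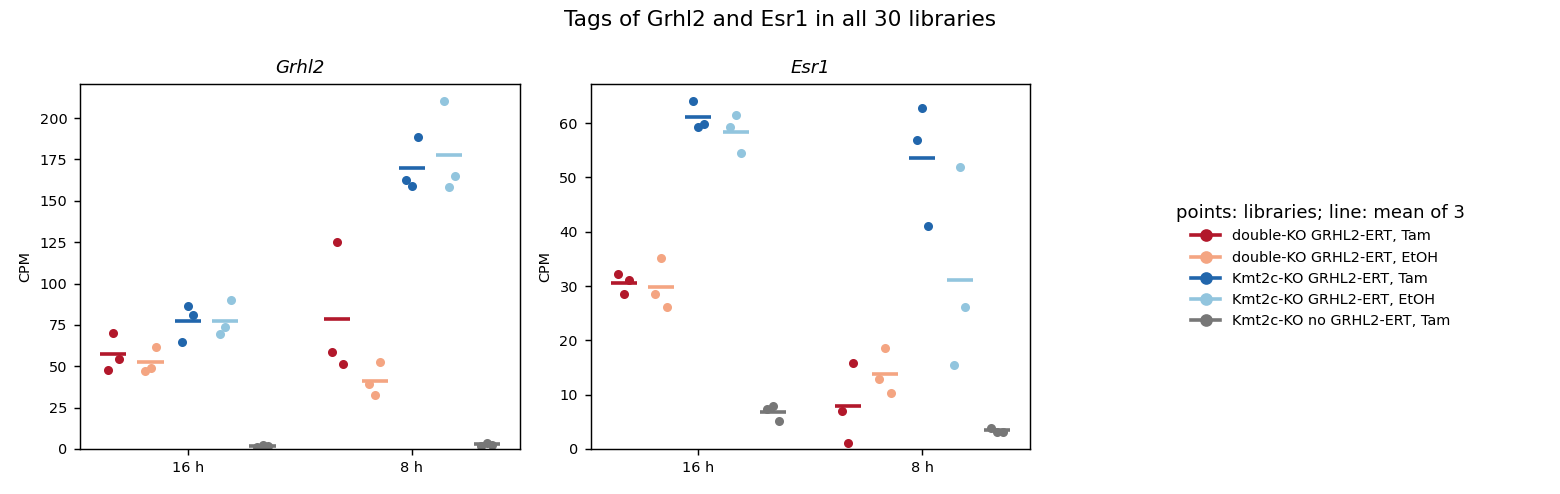
Grhl2 and Esr1 tags in CPM (vertical axes) in each of the 30 libraries, grouped by line, treatment and time (horizontal axes). Points are libraries and lines are means of 3. Grhl2 at 8 h averaged 78.3 CPM in double-KO and 170 CPM in Kmt2c-KO tamoxifen libraries, and under 3 CPM without GRHL2-ERT.

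The tags of Grhl2 itself were lower in mean in double-KO than in Kmt2c-KO GRHL2-ERT cells at both times, with tamoxifen and with ethanol. In CPM the groups of the lines overlapped only with tamoxifen at 16 h, and every other pair was wholly apart. With tamoxifen at 16 h they averaged 57.5 ± 11.5 CPM in double-KO and 77.5 ± 11.5 CPM in Kmt2c-KO cells (SD, n = 3 each), and the groups overlapped. At 8 h with tamoxifen they averaged 78.3 ± 40.8 CPM in double-KO cells, with libraries at 58.6, 125 and 51.2 CPM and a mean of 54.9 ± 5.23 CPM (n = 2) without the library that stood apart, and 170 ± 16.4 CPM in Kmt2c-KO cells. With ethanol they averaged 52.5 ± 7.89 CPM in double-KO and 77.6 ± 11.1 CPM in Kmt2c-KO cells at 16 h, and 41.2 ± 10.1 CPM in double-KO and 178 ± 28.3 CPM in Kmt2c-KO cells at 8 h. Cells without GRHL2-ERT had 1.78 CPM at 16 h and 2.66 CPM at 8 h. Tags of Esr1, the gene of the receptor part of the fusion, averaged 30.6 ± 1.93 CPM in double-KO and 61.2 ± 2.60 CPM in Kmt2c-KO cells with tamoxifen at 16 h, and 7.91 ± 7.44 CPM in double-KO and 53.6 ± 11.3 CPM in Kmt2c-KO cells with tamoxifen at 8 h. All genes together were shifted between the lines: the median gene was 0.35 higher on the log2 scale in double-KO than in Kmt2c-KO ethanol libraries at 16 h and 0.31 higher at 8 h, and 0.02 and 0.03 higher after median-of-ratios scaling. With that scaling the tamoxifen groups at 16 h no longer overlapped for Grhl2, at 50.0 ± 11.5 scaled CPM in double-KO and 87.6 ± 9.66 scaled CPM in Kmt2c-KO cells. In Kmt2c-KO cells mean Grhl2 did not rise with tamoxifen at either time. The order of the 3 double-KO tamoxifen libraries at 8 h is given for the 7 genes beside that of Grhl2, without a test. The library with the most Grhl2, which stood apart, had the most Wnt7b, Pea15a and Sord of its group. It had the least Aldh3b2 and Hsbp1l1, and lay between the others for Bnipl and Acsl5. Aldh3b2 was at 0 CPM and Hsbp1l1 at 0.339 CPM in that library, where 3 reads are 0.340 CPM. Their rank there therefore cannot be read against Grhl2. The part of the difference in Grhl2 in the responses of the 7 genes was not tested. In bulk RNA, fewer responding cells and less RNA per cell cannot be told apart.

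In double-KO GRHL2-ERT cells the tamoxifen libraries lay wholly above the ethanol libraries for 6 of 7 genes at 16 h, as for 7.45% of all 12414 tested genes, and for 4 of 7 at 8 h (3.83% of all genes). The exception at 16 h was Aldh3b2, and those at 8 h were Aldh3b2, Acsl5 and Hsbp1l1. In Kmt2c-KO GRHL2-ERT cells they did so for all 7 genes at 16 h (7.20% of all genes) and at 8 h (13.0%), as the selection requires. Over the 7 genes the median log2 fold change, on the log2(CPM + 1) scale used throughout, was 0.84 in double-KO and 1.62 in Kmt2c-KO cells at 16 h, and 0.53 in double-KO and 2.51 in Kmt2c-KO cells at 8 h. The double-KO median at 8 h was 0.34 without ethanol replicate 1. All-gene medians lay between -0.07 and 0.03. This scale understates the change of genes near 1 CPM.

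**Figure D2:**
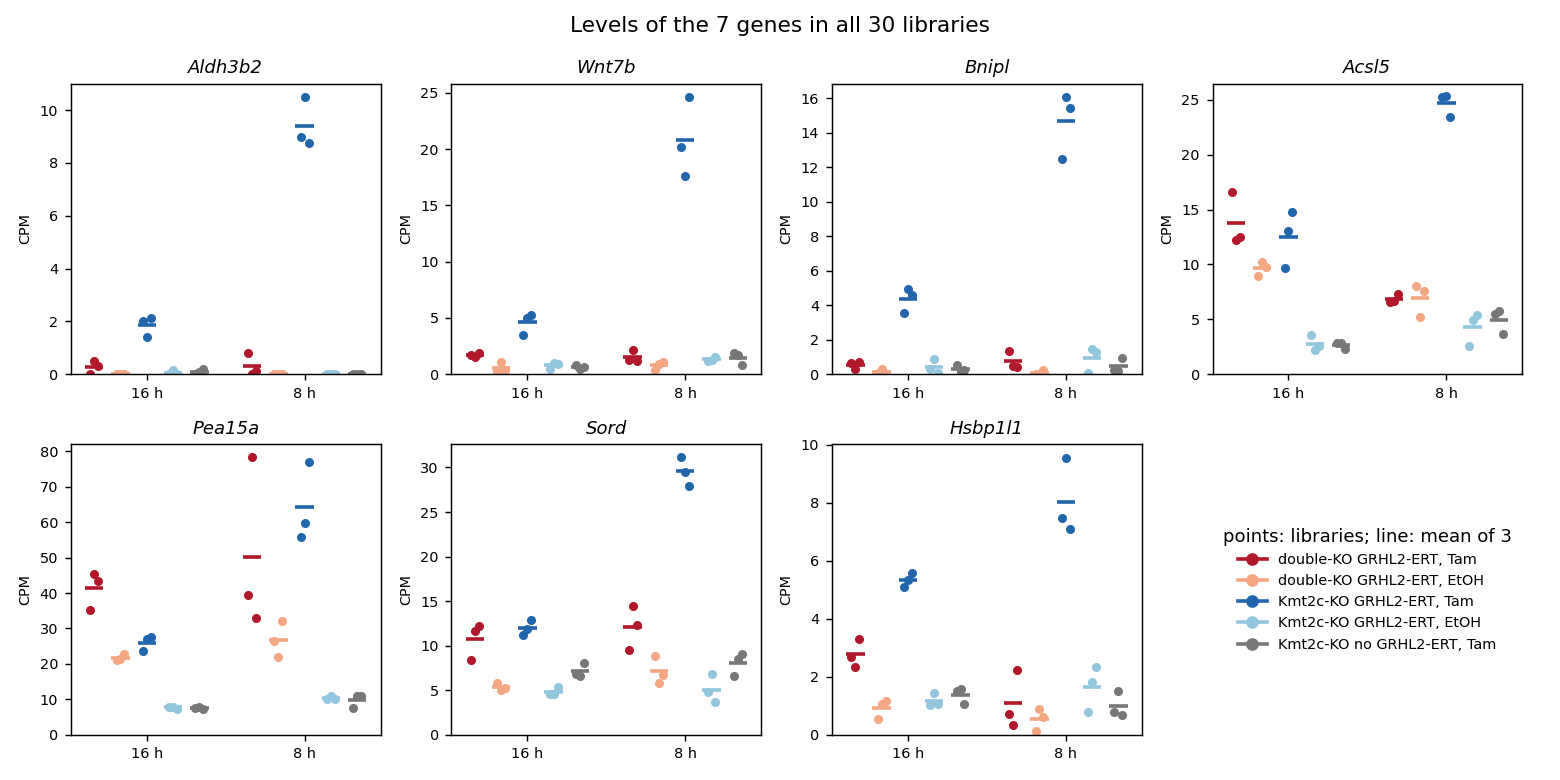
CPM (vertical axes, linear, each from 0) of the 7 genes in each of the 30 libraries by time (horizontal axes). Points are libraries and lines are means of 3. Kmt2c-KO tamoxifen libraries at 8 h are the highest group for all 7 genes by mean, while for Pea15a 1 double-KO library reaches 78.4 CPM and overlaps them.

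Aldh3b2 oxidises aldehydes of lipids and in mouse is found on lipid droplets. In double-KO cells at 16 h it had 0, 0.487 and 0.301 CPM with tamoxifen, which are 0, 6 and 4 reads, and none in the 3 ethanol libraries. Kmt2c-KO cells at 16 h had 2.03, 1.41 and 2.14 CPM with tamoxifen, against 0, 0.159 and 0 CPM with ethanol. The tamoxifen groups of the lines did not overlap. At 8 h double-KO cells had 0.795, 0 and 0.109 CPM with tamoxifen and none with ethanol, and without the library of 13 reads (replicate 1) the log2 fold change of 0.33 ± 0.20 (SE) was 0.07. Kmt2c-KO cells at 8 h had 8.96, 10.5 and 8.77 CPM with tamoxifen and none with ethanol, a rise of at least 46.5-fold when ethanol is set at 3 reads per library. The gene was close to undetected in every group other than the Kmt2c-KO tamoxifen groups: the highest mean elsewhere was 0.301 CPM. It entered the test through those groups alone.

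Wnt7b encodes a Wnt ligand that signals through frizzled receptors with the help of Reck and Adgra2. Double-KO cells at 16 h had 1.67, 1.54 and 1.88 CPM with tamoxifen, against 0.248, 1.06 and 0.324 CPM with ethanol. Kmt2c-KO cells at 16 h had 3.45, 5.03 and 5.29 CPM with tamoxifen, against 0.444, 0.953 and 0.935 CPM with ethanol. Tamoxifen libraries lay above ethanol libraries in both lines, by 3.12-fold in double-KO and 5.91-fold in Kmt2c-KO cells. Without ethanol replicate 2, the library at 1.06 CPM, the double-KO fold was 5.93, as large as the Kmt2c-KO one. At 8 h double-KO cells had 1.28, 2.15 and 1.19 CPM with tamoxifen, against 0.343, 0.862 and 1.11 CPM with ethanol. The Kmt2c-KO libraries at 8 h held 20.2, 17.6 and 24.6 CPM with tamoxifen, against 1.13, 1.22 and 1.54 CPM with ethanol. The lowest Kmt2c-KO tamoxifen library at 8 h lay far above the highest double-KO one, and the log2 fold changes were 0.53 ± 0.24 in double-KO and 3.24 ± 0.24 in Kmt2c-KO cells. The double-KO value was 0.34 without ethanol replicate 1.

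Bnipl, whose BCH domain relates it to BNIP2, was another gene with few tags before induction. In double-KO cells at 16 h it had 0.655, 0.324 and 0.676 CPM with tamoxifen, against 0.062, 0.294 and 0 CPM with ethanol. In Kmt2c-KO cells at 16 h it had 3.53, 4.96 and 4.58 CPM with tamoxifen, against 0.317, 0.873 and 0.0719 CPM with ethanol. Log2 fold changes were 0.47 ± 0.28 in double-KO and 1.94 ± 0.28 in Kmt2c-KO cells, the widest difference between the lines among the 7 genes at 16 h (-1.47 ± 0.39). At 8 h double-KO cells had 1.35, 0.452 and 0.434 CPM with tamoxifen, against 0, 0 and 0.253 CPM with ethanol. Kmt2c-KO cells had 12.5, 16.0 and 15.5 CPM with tamoxifen at 8 h, against 0.0595, 1.47 and 1.30 CPM with ethanol. One of these ethanol libraries was near 0 and the others above 1 CPM, and the log2 fold change of 3.10 ± 0.28 was 2.71 without the low one. Bnipl reached 1 CPM as a group mean in the Kmt2c-KO tamoxifen groups alone (0.942 CPM at most elsewhere) and entered the test through them.

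Hsbp1l1 was low in ethanol in both lines. Double-KO cells at 16 h had 2.69, 2.35 and 3.31 CPM with tamoxifen, against 0.558, 1.06 and 1.17 CPM with ethanol. Kmt2c-KO cells at 16 h had 5.10, 5.33 and 5.59 CPM with tamoxifen, against 1.01, 1.43 and 1.08 CPM with ethanol. The fold was 3.00 in double-KO and 4.55 in Kmt2c-KO cells, and the tamoxifen groups of the lines did not overlap. At 8 h the double-KO libraries scattered, at 0.734, 0.339 and 2.23 CPM with tamoxifen and 0.147, 0.907 and 0.607 CPM with ethanol. Kmt2c-KO cells at 8 h had 7.49, 9.55 and 7.11 CPM with tamoxifen, against 0.773, 1.84 and 2.35 CPM with ethanol. The double-KO groups overlapped at 8 h, and the log2 fold change of 0.36 ± 0.27 rested on single libraries. It was 0.00 without replicate 3 of the tamoxifen group, the one library above 1 CPM, 0.16 without ethanol replicate 1 and 0.64 without tamoxifen replicate 2, the library that stood apart. In Kmt2c-KO cells it was 1.81 ± 0.27.

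Acsl5, Pea15a and Sord were expressed at 2 CPM or more in every library, with or without tamoxifen. Acsl5 activates long-chain fatty acids for lipid synthesis and oxidation. Its double-KO libraries at 16 h had 16.6, 12.2 and 12.5 CPM with tamoxifen, against 8.99, 10.2 and 9.80 CPM with ethanol. Its Kmt2c-KO libraries at 16 h had 9.68, 13.1 and 14.7 CPM with tamoxifen, against 3.55, 2.22 and 2.59 CPM with ethanol. The lines ended at overlapping tamoxifen levels and started from different ethanol levels, so that the fold was 1.43 in double-KO and 4.48 in Kmt2c-KO cells. At 8 h double-KO cells had 6.61, 6.66 and 7.27 CPM with tamoxifen, against 8.03, 5.17 and 7.59 CPM with ethanol. Kmt2c-KO cells at 8 h had 25.3, 25.3 and 23.5 CPM with tamoxifen, against 2.56, 4.96 and 5.35 CPM with ethanol. At 8 h the double-KO groups of Acsl5 overlapped, with a log2 fold change of 0.00 ± 0.21, against 2.33 ± 0.21 in Kmt2c-KO cells.

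Pea15a, which holds ERK in the cytoplasm, had the highest level of the 7. Double-KO cells at 16 h had 35.3, 45.4 and 43.3 CPM with tamoxifen, against 21.1, 21.4 and 22.8 CPM with ethanol. Kmt2c-KO cells at 16 h had 23.6, 27.0 and 27.5 CPM with tamoxifen, against 7.99, 7.94 and 7.41 CPM with ethanol. The fold was 1.90 in double-KO and 3.34 in Kmt2c-KO cells, although the gain was 19.6 ± 3.12 CPM (SE) in double-KO and 18.2 ± 1.26 CPM in Kmt2c-KO cells. At 8 h double-KO cells had 39.5, 78.4 and 32.9 CPM with tamoxifen, against 26.4, 22.0 and 32.0 CPM with ethanol. Kmt2c-KO cells had 55.9, 59.8 and 76.9 CPM with tamoxifen at 8 h, against 9.99, 11.0 and 10.1 CPM with ethanol. The double-KO library of 78.4 CPM is the one that stood apart. With it the log2 fold change was 0.80 ± 0.20 in double-KO cells, and without it the change was 0.43 and the mean 36.2 ± 4.67 CPM (SD, n = 2). In Kmt2c-KO cells it was 2.51 ± 0.20.

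Sord oxidises sorbitol to fructose. Double-KO cells at 16 h had 8.37, 11.7 and 12.3 CPM with tamoxifen, against 5.77, 5.01 and 5.25 CPM with ethanol. Kmt2c-KO cells at 16 h had 11.3, 11.8 and 12.8 CPM with tamoxifen, against 4.56, 4.61 and 5.32 CPM with ethanol. At 16 h the lines were close for Sord: log2 fold changes were 0.88 ± 0.19 in double-KO and 1.15 ± 0.19 in Kmt2c-KO cells, the smallest difference among the 7 genes (-0.28 ± 0.27, and -0.12 without double-KO tamoxifen replicate 1). At 8 h double-KO cells had 9.48, 14.5 and 12.3 CPM with tamoxifen, against 8.81, 5.85 and 6.68 CPM with ethanol. Kmt2c-KO cells at 8 h had 31.2, 29.5 and 27.9 CPM with tamoxifen, against 4.76, 6.86 and 3.65 CPM with ethanol. At 8 h the tamoxifen groups of the lines lay far apart, with log2 fold changes of 0.69 ± 0.19 in double-KO and 2.36 ± 0.19 in Kmt2c-KO cells.

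**Figure D3:**
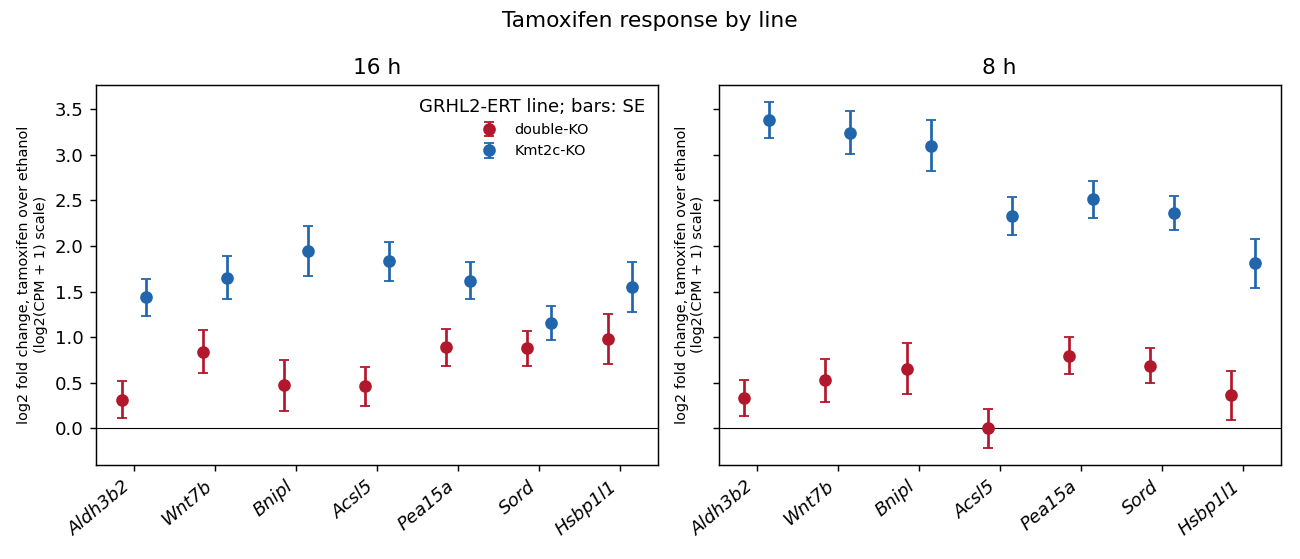
Log2 fold change with tamoxifen over ethanol (vertical axes, log2(CPM + 1) scale) of the 7 genes (horizontal axes) at 16 h and at 8 h, for double-KO and Kmt2c-KO GRHL2-ERT cells. Points are model estimates and bars are 1 SE. Double-KO estimates stay between 0.00 and 0.98, and Kmt2c-KO estimates run from 1.15 to 1.94 at 16 h and from 1.81 to 3.38 at 8 h.

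The difference between the lines in the response was negative for every gene at both times. At 16 h it ran from -0.28 (Sord) to -1.47 (Bnipl), with a median of -0.81, and at 8 h from -1.45 (Hsbp1l1) to -3.04 (Aldh3b2), with a median of -2.32. All-gene medians were 0.01 and -0.10. Over all genes limma (Benjamini-Hochberg) called 0 differences at 16 h at an adjusted p under 0.05, with 315 at an unadjusted p under 0.05, and 177 at 8 h (1.43%). These values describe how the genes were picked.

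On the linear scale the 7 genes were unequal in how much of the gain was kept in double-KO cells. At 16 h the gain of mean CPM in double-KO cells was 11.0% of that in Kmt2c-KO cells for Bnipl, 14.5% for Aldh3b2 and 30.3% for Wnt7b. It was 42.4% for Acsl5, 44.5% for Hsbp1l1, 75.9% for Sord and 107% for Pea15a. The 3 smallest shares belonged to Bnipl, Aldh3b2 and Wnt7b, which all averaged under 1 CPM in ethanol at 16 h. Leaving out 1 double-KO tamoxifen library lowered the 16 h share to 8.32% for Aldh3b2 (replicate 2) and 27.8% for Acsl5 (replicate 1). At 8 h the shares were lower for all 7 genes, from -0.405% for Acsl5 and 3.20% for Aldh3b2 to 20.3% for Sord and 43.5% for Pea15a. Several 8 h shares rested on 1 double-KO tamoxifen library. Without replicate 2, which stood apart, the share was 17.4% for Pea15a, 14.5% for Hsbp1l1 (8.54% with it) and 2.39% for Wnt7b (3.94% with it). Without replicate 1 it was 0.577% for Aldh3b2 and 2.61% for Bnipl (4.81% with it), and without replicate 3 -0.272% for Hsbp1l1. For Hsbp1l1 it was 5.35% without ethanol replicate 1, and for Acsl5 it ran from -4.72% to 2.28% on leaving out 1 double-KO library. Median-of-ratios scaling lowered the 16 h shares to 8.35% for Bnipl, 57.6% for Sord and 81.8% for Pea15a.

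**Figure D4:**
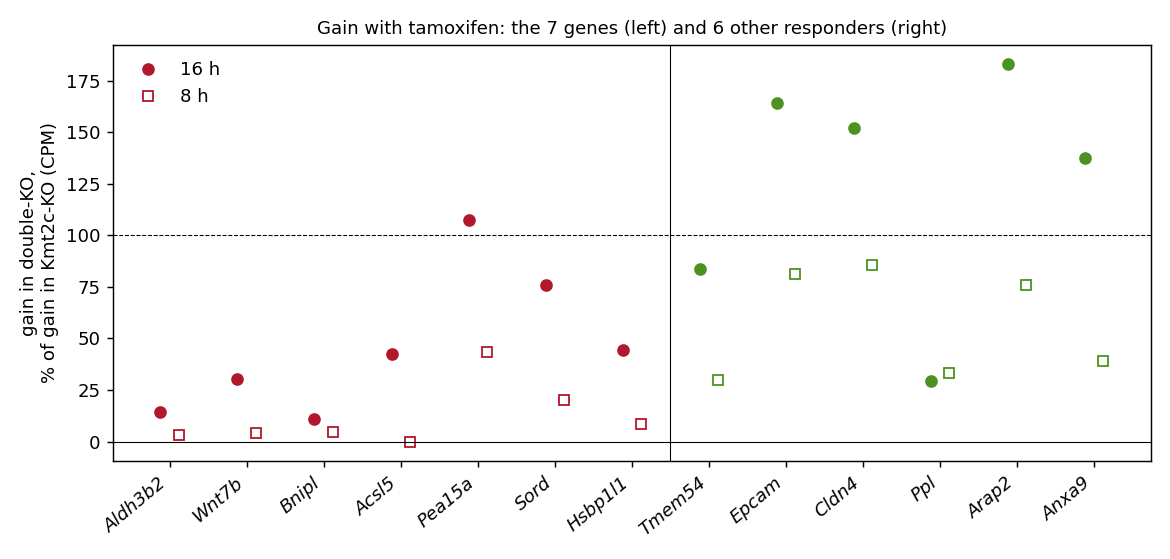
Gain of mean CPM with tamoxifen in double-KO GRHL2-ERT cells as a percentage of the gain in Kmt2c-KO GRHL2-ERT cells (vertical axis) for the 7 genes and for 6 other responders (horizontal axis), at 16 h (filled circles) and 8 h (open squares). The dashed line marks equal gains; Pea15a lies at 107% at 16 h and the other 6 members below 100%.

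In ethanol Pea15a and Acsl5 had more RNA in double-KO cells, and at 8 h Bnipl and Hsbp1l1 had less. At 16 h the log2 fold change of double-KO over Kmt2c-KO ethanol libraries was 1.51 ± 0.21 for Acsl5 and 1.37 ± 0.20 for Pea15a, and the groups of both did not overlap, as for 53.8% of all genes. At 8 h it was 0.61 ± 0.21 for Acsl5, with overlap (0.35 without Kmt2c-KO ethanol replicate 1), and 1.28 ± 0.20 for Pea15a, without overlap, as for 39.6% of all genes. After median-of-ratios scaling the values were 1.20 and 1.03 at 16 h and 0.34 and 0.98 at 8 h for Acsl5 and Pea15a. Wnt7b lay lower without overlap in double-KO ethanol libraries at 8 h (13.5% of all genes did so), at 0.773 ± 0.393 CPM against 1.30 ± 0.215 CPM in Kmt2c-KO cells (SD, n = 3 each). For Bnipl and Hsbp1l1 at 8 h the log2 fold changes were -0.75 ± 0.28 and -0.75 ± 0.27, with overlap. That of Bnipl was -1.14 without Kmt2c-KO ethanol replicate 1. No member other than Acsl5, Pea15a and Wnt7b separated in CPM. With median-of-ratios scaling Sord and Hsbp1l1 at 16 h and Hsbp1l1 at 8 h also lay wholly lower in double-KO ethanol libraries. These ethanol libraries also served to choose the genes, so no p is given. Primitive endoderm markers moved with the same contrast, and their part was not tested.

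With tamoxifen 4 of the 7 genes (Aldh3b2, Wnt7b, Bnipl and Hsbp1l1) had every double-KO library below every Kmt2c-KO library at 16 h, against 14.1% of all genes. At 8 h it was 6, all except Pea15a, against 13.5% of all genes. Pea15a at 16 h lay wholly higher in double-KO cells, at 41.3 ± 5.32 CPM against 26.0 ± 2.15 CPM in Kmt2c-KO cells (49.3% of all genes did so), and overlapped after median-of-ratios scaling. Acsl5 at 16 h was 0.14 higher on the log2 scale in double-KO cells and 0.22 lower with that scaling, and its groups overlapped under both. Sord at 16 h overlapped in CPM, and with that scaling lay wholly lower in double-KO cells (9.33 ± 1.85 against 13.6 ± 0.611 scaled CPM in Kmt2c-KO cells).

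Cells without GRHL2-ERT received tamoxifen too, and gave the level of each gene with the drug alone. GRHL2-ERT Kmt2c-KO tamoxifen libraries lay wholly above them for all 7 genes at 16 h (9.60% of all genes) and at 8 h (12.5%). Those tamoxifen libraries served to pick the genes, and Aldh3b2 and Bnipl entered the test through them alone. The count of 7 therefore follows largely from the selection, and no p is given. Log2 fold changes ran from 0.67 ± 0.19 for Sord to 2.02 ± 0.28 for Bnipl at 16 h, and from 1.76 ± 0.19 for Sord to 3.45 ± 0.28 for Bnipl at 8 h. Sord was smallest in both. Cells without GRHL2-ERT had 7.19 ± 0.746 CPM of it at 16 h, above the 4.83 ± 0.426 CPM of GRHL2-ERT Kmt2c-KO ethanol libraries, with no overlap. It was the one member for which ethanol GRHL2-ERT Kmt2c-KO libraries separated from these cells at 16 h (7.82% of all genes were wholly lower), and none did at 8 h (7.46% of all genes were wholly higher and 8.56% lower). Aldh3b2 had 0, 0.0757 and 0.199 CPM at 16 h and none at 8 h without GRHL2-ERT, and Pea15a 7.53, 7.72 and 7.18 CPM at 16 h and 7.71, 11.0 and 11.0 CPM at 8 h. Double-KO tamoxifen libraries lay wholly above these cells for 5 genes at 16 h (Wnt7b, Acsl5, Pea15a, Sord and Hsbp1l1; 49.0% of all genes) and for 3 at 8 h (Acsl5, Pea15a and Sord; 30.9%). That pair of groups differs in Kmt2d as well as in GRHL2-ERT. At 16 h the log2 fold changes were 0.73 for Wnt7b, 2.02 for Acsl5, 2.31 for Pea15a, 0.51 for Sord and 0.66 for Hsbp1l1. After median-of-ratios scaling they were 0.52 ± 0.24, 1.68 ± 0.21, 1.93 ± 0.22, 0.15 ± 0.19 and 0.39 ± 0.26 in the same order. For Hsbp1l1 at 8 h the fitted difference was -0.01 ± 0.27, and for Wnt7b 0.06 ± 0.24.

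Time was tested in cells without GRHL2-ERT, whose libraries did not serve to pick the genes. There 1 of 7 genes was called between 16 h and 8 h, against 36.6% of all genes: Acsl5 had 2.79, 2.80 and 2.26 CPM at 16 h, against 5.49, 5.78 and 3.66 CPM at 8 h. It fell by 0.71 ± 0.21 on the log2 scale (limma adjusted p = 0.01), and without replicate 2 at 8 h the call was lost. Wnt7b had 0.850, 0.454 and 0.598 CPM at 16 h, against 1.85, 1.71 and 0.807 CPM at 8 h, and did not pass (-0.57 ± 0.24; limma adjusted p = 0.062). It passed without replicate 3 at 8 h. Aldh3b2 and Bnipl were among the 7 tested through the Kmt2c-KO tamoxifen groups alone. The same comparison in ethanol used libraries that served to pick the genes, and nothing is read from it: limma called 0 of 7 genes in double-KO cells (21.3% of all genes) and 0 of 7 in Kmt2c-KO GRHL2-ERT cells (45.0%), with 1 of 7 at an unadjusted p under 0.05 in each.

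With tamoxifen and GRHL2-ERT, the level at 16 h was lower than at 8 h for all 7 genes in Kmt2c-KO cells, without overlap, as for 36.8% of all genes. The 16 h level ranged from 0.198 times the 8 h level for Aldh3b2 to 0.664 times for Hsbp1l1. Grhl2 tags in these groups had the same direction, at 0.455 times. In double-KO cells no gene was wholly lower at 16 h (18.7% of all genes were), and 2 were wholly higher (13.2% of all genes): Acsl5 at 2.01 times and Hsbp1l1 at 2.53 times. For Hsbp1l1 it was 5.19 times without tamoxifen replicate 3 at 8 h. These tamoxifen libraries were used in picking the genes and are described without a test.

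Other induced genes from the same libraries are set beside the members here. They were 6 responders that earlier results of these data had called in double-KO cells: Tmem54, Epcam (a cell adhesion protein), Cldn4 (a tight junction claudin), Ppl (periplakin of desmosomes), Arap2 and Anxa9. At 16 h their gain in double-KO cells was 29.6% (Ppl), 83.5% (Tmem54), 137% (Anxa9), 152% (Cldn4), 164% (Epcam) and 183% (Arap2) of that in Kmt2c-KO cells. Median-of-ratios scaling lowered these shares to 22.4% (Ppl), 63.3% (Tmem54), 104% (Anxa9), 114% (Cldn4), 122% (Epcam) and 138% (Arap2). Leaving out 1 library without that scaling gave 126% to 224% for Epcam. At 8 h the share of the 6 responders was 29.9% to 85.7%, against -0.405% to 43.5% for the 7 members, and the ranges overlapped. Tmem54 (29.9%), Ppl (33.5%) and Anxa9 (39.3%) lay below Pea15a, so these responders were also weaker in double-KO cells at 8 h. Without double-KO tamoxifen replicate 2 it was 27.4% to 104%, against 0.0504% to 17.4% for the 7 members, with no overlap. The overlap remained on leaving out either other library of that group. Pea15a was at 53.5% and Tmem54 at 26.2% without replicate 1, and they were at 59.7% and 34.4% without replicate 3. Both sets were picked with these data in view, so no test is given. Tmem54 shared the low ethanol level of Bnipl and Wnt7b. With tamoxifen at 16 h it had 5.23 ± 0.510 CPM in double-KO and 5.79 ± 1.37 CPM in Kmt2c-KO cells. With ethanol at 16 h it had 0.480 ± 0.286 CPM in double-KO and 0.111 ± 0.0992 CPM in Kmt2c-KO cells. At 8 h the tamoxifen levels of Tmem54 lay further apart, at 3.65 ± 0.916 CPM in double-KO and 11.5 ± 2.11 CPM in Kmt2c-KO cells. The ethanol levels at 8 h were 0.355 ± 0.373 CPM in double-KO and 0.500 ± 0.362 CPM in Kmt2c-KO cells. The response of Tmem54 did not differ between the lines by the test (16 h -0.51 ± 0.35, limma adjusted p = 1.0; 8 h -1.28 ± 0.35, adjusted p = 0.056), which does not show that the lines respond alike.

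Over the 10 group means, the genes outside the set most like the members' average profile by Pearson correlation were Ppl (0.949), Tmem54 (0.929), Il17re (0.920), Rab3d (0.917), Atox1 (0.911) and Anxa9 (0.903), out of 10045 genes ranked. Members themselves lay between 0.765 (Pea15a) and 0.967 (Wnt7b). Ppl, Tmem54 and Anxa9 are also among the responders set beside the members above, so those responders are not a set unlike the members. Aldh3b2, Wnt7b and Bnipl followed each other closely, with pairwise correlations of 0.975 to 0.981, and Pea15a and Hsbp1l1 least, at 0.494. These are correlations over 10 means that share libraries and the selection, and describe likeness of profile. Ranking needed 5 CPM in some group, and Ppl, Il17re, Rab3d and Anxa9 reached it only in Kmt2c-KO tamoxifen libraries at 8 h. The members were highest there too, so this filter favours such profiles. Il17re, a receptor of the interleukin 17 family, had 1.02 ± 0.467 CPM with tamoxifen and 0.502 ± 0.10 CPM with ethanol in double-KO cells at 8 h, and 5.26 ± 1.13 CPM with tamoxifen and 0.195 ± 0.0438 CPM with ethanol in Kmt2c-KO cells. Atox1, a copper chaperone, was abundant throughout, at 135 ± 30.8 CPM with tamoxifen and 91.7 ± 1.86 CPM with ethanol in double-KO cells at 8 h, and 195 ± 13.2 CPM with tamoxifen and 82.9 ± 10.3 CPM with ethanol in Kmt2c-KO cells.

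Few genes of the families and pathways of the 7 genes passed the test. Of 5 other Wnt ligands tested, Wnt4 rose with tamoxifen in Kmt2c-KO cells at 8 h, to 10.5 ± 1.62 CPM, against 3.10 ± 1.49 CPM with ethanol, a log2 fold change of 1.54 with an SE of 0.25 (limma adjusted p = 0.00021), and none of the others passed between tamoxifen and ethanol in either line. By limma none of 18 genes for Wnt secretion and receptors and none of 12 Wnt/beta-catenin targets passed in either line or time, with 0 to 3 and 1 to 4 genes at an unadjusted p under 0.05. Nor did any of 11 other aldehyde dehydrogenases (0 to 5 unadjusted), 13 genes of the polyol and fructose pathway (0 to 4) or 10 partners of Pea15a with a death effector domain or in ERK signalling (0 to 2). The share of all genes that passed was 0.0403% in double-KO and 0.298% in Kmt2c-KO cells at 16 h, and 0.0967% in double-KO and 4.95% in Kmt2c-KO cells at 8 h. Of 16 acyl-CoA and fatty acid genes, Fabp3, a fatty acid carrier, rose in double-KO cells at 8 h (129 ± 9.67 CPM with tamoxifen, 90.9 ± 7.11 CPM with ethanol; log2 fold change 0.50 ± 0.09, limma adjusted p = 0.02), and lost the call without ethanol replicate 1 (limma adjusted p = 0.099). Of the other 2 BCH-domain genes tested Prune2 rose in Kmt2c-KO cells at 8 h (0.88 ± 0.25, limma adjusted p = 0.036). Of 12 heat shock factor genes, Hsbp1 rose (0.52 ± 0.11, limma adjusted p = 0.0056) and the chaperone gene Hsph1 fell (-0.43 ± 0.11, limma adjusted p = 0.021) in the same cells and time. Of these, Prune2 lost its call without ethanol replicate 1 or 3 or tamoxifen replicate 1 or 2 of Kmt2c-KO cells at 8 h, Hsph1 without ethanol replicate 3 or tamoxifen replicate 1 or 2, and Hsbp1 without ethanol replicate 3 (limma adjusted p up to 0.2, 0.15 and 0.051). Wnt4 kept its call without each of the 30 libraries in turn.

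Known epithelial targets of GRHL2 were taken as a list of 36 tested genes without the members. In double-KO cells 3 rose at 16 h (Epcam, Cldn4 and Tmem54) and 4 at 8 h (those and Ppl), against 5 at 16 h and 18 at 8 h in Kmt2c-KO cells, and none fell. All 4 are among the responders that earlier results of these data had called in double-KO cells, so the double-KO counts repeat that choice. Of all genes 0.0403% at 16 h and 0.0967% at 8 h were called in double-KO cells, in either direction. In Kmt2c-KO cells it was 0.298% and 4.95%. The call of Ppl in double-KO cells rested on single libraries: it was lost without tamoxifen replicate 2 or any 1 ethanol library at 8 h (limma adjusted p = 0.055 to 0.2). For 3 genes of the list the difference between lines at 8 h was itself called: the claudin Cldn6, the tight junction gene Cgn and Mal2. All had a smaller response in double-KO cells. None of the 3 was called in a fit of the 8 h GRHL2-ERT libraries alone (limma adjusted p = 0.3 to 0.41). Cgn kept its call without each of the 30 libraries in turn and with a replicate block (adjusted p = 0.023), and Cldn6 and Mal2 lost it with the block (limma adjusted p = 0.059 and 0.06) and without 1 of 7 and 1 of 6 of the 8 h libraries (limma adjusted p = 0.051 to 0.13), among them double-KO tamoxifen replicate 2, the library that stood apart. Cgn had 2.59 ± 2.02 CPM with tamoxifen and 4.21 ± 1.82 CPM with ethanol in double-KO cells at 8 h, and 32.3 ± 9.94 CPM with tamoxifen and 7.06 ± 3.57 CPM with ethanol in Kmt2c-KO cells. At 16 h limma called no gene of any list for a difference between the lines in its response, with 4 GRHL2 targets and 1 partner of Pea15a at an unadjusted p under 0.05. The naive markers Sox2, Zfp42 and Klf4 were lower with tamoxifen in the 8 h Kmt2c-KO libraries by log2 fold changes of -0.54 ± 0.10, -0.59 ± 0.14 and -0.47 ± 0.13 (limma adjusted p = 0.00099, 0.011 and 0.025). Klf4 lost the call without ethanol replicate 1 or any 1 tamoxifen library, and Zfp42 without ethanol replicate 1 or tamoxifen replicate 2. No other marker of the 10 passed there by limma, and the median log2 fold change over the 10 was -0.28. Their summed level was not lower with tamoxifen, at 9120 to 10374 CPM against 8292 to 9950 CPM with ethanol, with overlap. The abundant Dppa5a can set this sum. It ran from 751 to 9151 CPM over the 30 libraries, while no other marker passed 1945 CPM (Pou5f1). The sum therefore says little about Sox2, Zfp42 and Klf4. By limma none of the 10 naive markers passed in double-KO cells, with 0 at 16 h and 5 at 8 h at an unadjusted p under 0.05. The trophoblast marker Esx1 rose in Kmt2c-KO cells at 8 h (1.08 ± 0.24, limma adjusted p = 0.0063). None of the other trophoblast markers passed there, of 6 tested. The summed level of the 6 overlapped, at 129 to 139 CPM with tamoxifen and 97.4 to 132 CPM with ethanol. The part of these markers in the responses of the 7 genes was not tested.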

How the data were processed

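The authors deposited 1 table of log2 values per gene and library; every value equalled the log2 of CPM plus 0.124871, where CPM is a library's share of the counts over the table's genes. Per the submitters' processing notes, Salmon, DESeq2 1.34.0 and mm10 were used, with no step named, and further settings are not given in the sources used here. The authors' group means matched the library columns to 4.7e-08. The labels' treatments, which include ethanol only for lines with GRHL2-ERT, decided which Kmt2c-KO columns carried the transgene. Per the labels' protocols, libraries were made with a QuantSeq 3′ kit and read from a single end.

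From the deposited values CPM was recomputed, and log2(CPM + 1) was fitted in R 4.3.3 by limma 3.58.1: 1 mean per group over 30 libraries, a variance trend and robust moderation, for the 12414 genes that reached a mean of 1 CPM in some group. A call was a two-sided Benjamini-Hochberg adjusted p under 0.05 over all tested genes. The count test planned for counts was not run, because the deposited unit is log2. Reads were recovered from the spacing of low values: 95.0% to 97.9% of low values were whole within 0.05 reads, and floors of 3 reads cover counting error only. The fit was tested on simulated data. Python 3.11.15 and pandas 2.3.3 made the summaries.

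The members and lists were chosen with earlier results of these data known. One gene of the list of GRHL2 targets was left out of the list counts and is not reported here. Named genes were the 7 members, list genes that passed, 6 retained responders, the 6 genes most like the members over group means (at least 5 CPM in 1 group), and Grhl2, Esr1, Kmt2c and Kmt2d. Gains of mean CPM, median-of-ratios values of gains and levels, and gains, folds and time ratios without each library were chosen after the values were seen. Alternatives were other pseudocounts, no filter, median-of-ratios scaling, a replicate block, each contrast's libraries alone and leaving out each library.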

Additional observations from a re-analysis of the deposited data

Results flagged for a closer look

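For 6 genes outside the members, all from the lists, the tamoxifen response at 8 h differed between double-KO and Kmt2c-KO cells by the limma test of the difference itself. The difference, double-KO minus Kmt2c-KO on the log2 scale, was -2.74 ± 0.50 SE for Cgn (adjusted p = 0.0044), -1.44 ± 0.34 for Cldn6 (0.029) and -1.49 ± 0.37 for Mal2 (0.037), 3 GRHL2 targets. It was -1.92 ± 0.49 for Hspa1b, an inducible chaperone (limma adjusted p = 0.045), a call that was kept in 7 of 30 fits that left out 1 library and otherwise lost at an adjusted p of up to 0.12. It was positive for the naive markers Sox2 (0.70 ± 0.14; limma adjusted p = 0.011) and Zfp42 (0.97 ± 0.20; limma adjusted p = 0.013), which fell in Kmt2c-KO cells. With the 8 h GRHL2-ERT libraries alone in the fit, none of the 6 was called (limma adjusted p = 0.26 to 0.44). With a replicate block Cgn, Sox2 and Zfp42 kept their calls (limma adjusted p = 0.023, 0.038 and 0.029), and Cldn6, Mal2 and Hspa1b lost them (0.059, 0.06 and 0.065).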

How the results depend on the processing

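Of 1239 log2 fold changes of single members under alternatives, 1111 moved by less than the spread between libraries or kept their call, 123 moved further, 4 gained a call, 1 lost it and 0 reversed. The sign of the tamoxifen response was kept in 77 of 77 values for double-KO cells at 16 h, 74 of 77 at 8 h, and 77 of 77 at each time for Kmt2c-KO cells, and the sign of the difference between lines in 119 of 119 at each time.

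The pseudocount set the size of medians over the members. With 0.1 the median response was 1.52 in double-KO and 2.13 in Kmt2c-KO cells at 16 h and 0.81 in double-KO cells at 8 h, and the difference between lines at 8 h was -2.07. The median was -0.35 for double-KO over Kmt2c-KO cells in ethanol at 16 h, 2.20 (16 h) and 2.95 (8 h) for Kmt2c-KO and 0.96 (16 h) for double-KO over cells without GRHL2-ERT. With 5 the responses were 0.35 and 0.17 in double-KO and 0.79 and 1.73 in Kmt2c-KO cells at 16 h and 8 h, the differences -0.45 and -1.44, and the values over cells without GRHL2-ERT 0.28 and 0.081 for double-KO and 0.76 and 1.58 for Kmt2c-KO cells. Median-of-ratios scaling gave 0.39 for double-KO over those cells at 16 h.

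Outside the marker lists, list genes called for a difference at 8 h numbered 4 (the other 2 of the 6 were naive markers), but 2 with pseudocount 0.1, 10 with 5, 1 with a replicate block, 0 with that contrast's libraries alone, and 1 to 35 on leaving out 1 library (35 without double-KO tamoxifen replicate 3, 14 without Kmt2c-KO ethanol replicate 2, 12 without double-KO ethanol replicate 3, 9 without double-KO tamoxifen replicate 1, and 1 or 2 without 7 others). In double-KO cells at 8 h the 5 calls became 0 with that contrast's libraries alone and 3 to 43 on leaving out 1 library (43 without tamoxifen replicate 3, 8 without its replicate 1, 3 without ethanol replicate 1). Leaving out 1 library gave 2 to 5 calls in Kmt2c-KO cells at 16 h, against 5 (2 without tamoxifen replicate 2 or 3 or ethanol replicate 2, and 3 without ethanol replicate 1 or 3), and 14 to 36 at 8 h, against 22 (36 without double-KO and 14 without Kmt2c-KO tamoxifen replicate 2). It gave 0 to 2 members called for time in cells without GRHL2-ERT and 0 to 2 in Kmt2c-KO ethanol groups (2 without replicate 1 at 8 h), and a median difference at 8 h of -2.49 to -2.05. The cause of these shifts was not tested. Deviations from group means of same-numbered libraries correlated at -0.703 to 0.190, and no pairing by number was seen. In double-KO cells at 8 h tamoxifen replicate 2 and ethanol replicate 3 correlated at 0.561. Deviations from means of 3 libraries cannot settle whether libraries shared handling, and the block changed no member's call. The count model was not run. Depth limits Aldh3b2 and Bnipl, which had few reads outside Kmt2c-KO tamoxifen libraries.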
